A study of Mus musculus with 9 samples.

Results

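Transcripts of 41 genes that encode matrix metalloproteinases (MMPs), ADAMTS proteases, ADAMTS-like proteins and tissue inhibitors of metalloproteinases (TIMPs) were followed in whole mouse eyeballs. They were taken as the protein-coding rows whose symbol begins with Mmp and a digit, with Adamts, or is Timp1 to Timp4. These were 15 MMP, 17 ADAMTS, 5 ADAMTS-like and 4 TIMP genes among 22587 genes, and all 41 passed the filter on low counts. Mmp1a, Mmp1b, Mmp7, Mmp8, Mmp10, Mmp20, Mmp21, Mmp25, Adamts14, Adamts19 and Adamtsl6 had no row and were not analysed here. Every row held at least 1 read in each library, so a member without reads in some library could not be followed.

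The eyes came from female mice of BALB/C, an inbred albino strain, in 3 groups of 3 libraries. The T.chuii group was injected intraperitoneally with scopolamine and received 300 mg/kg of the microalga Tetraselmis chuii. The DES group (dry eye syndrome) received the same scopolamine injections and water, and the CON group was given water and no injection. Treatment ran for 2 weeks from 6 weeks of age, and the labelled tissue age was postnatal day 56. Scopolamine blocks muscarinic acetylcholine receptors, which lowers tear secretion. No group received the alga without scopolamine, and what scopolamine did and what injecting did cannot be told apart. The labels do not say whether the libraries of a group were separate animals, so p-values reflect only how far these 9 libraries spread, which may be technical.

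MMPs are zinc proteases that are made as inactive proenzymes and cut collagens, laminins and other matrix proteins once the propeptide is removed. ADAMTS proteases cut proteoglycans such as versican and aggrecan, process procollagen or cleave von Willebrand factor, and the ADAMTS-like proteins share their matrix-binding domains but lack the protease. TIMPs bind the active site of these enzymes, and in the cornea the balance of MMPs and TIMPs is known to bear on epithelial barrier loss, ulceration and wound repair.

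Library totals lay between 39.1 and 64.6 M reads. Markers of corneal epithelium, rods and retinal pigment epithelium were present in every library, but the tissue was not equally represented. The summed CPM (a read count corrected for library depth with factors from trimmed mean log ratios, TMM) of corneal epithelial markers divided by that of rod markers was 5.35, 0.483 and 0.636 in T.chuii libraries 1, 2 and 3, against 3.41, 0.591 and 0.883 in DES and 0.935, 5.2 and 1.1 in CON. T.chuii 1, DES 1 and CON 2 were thus the corneal-rich libraries of their groups. Lens markers (10 of 15 listed genes had rows) summed to 28560, 60230 and 11780 CPM in T.chuii and to 43990, 386.5 and 39340 in DES, whereas the 3 CON libraries held 257.3 to 286.6. The lens crystallin gene Cryaa was at 0.261, 12.7 and 0.268 CPM in CON, so a defining marker of an eyeball tissue was close to 0 in 2 of 3 CON libraries. In bulk tissue, fewer cells of a type and less RNA per cell cannot be told apart.

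No gene of the 41 passed the test in any of the 3 comparisons, and neither did any other gene. With limma-voom (Benjamini-Hochberg adjustment over 21287 genes), 0.0% were called at an adjusted p under 0.05 in DES vs CON, in T.chuii vs DES and in T.chuii vs CON. Without adjustment, 127 genes were higher and 108 lower at p under 0.05 in DES vs CON, 159 and 74 in T.chuii vs DES, and 671 and 241 in T.chuii vs CON. Limma-trend on log2 FPKM (a deposited level corrected for transcript length and for library depth) with a pseudocount of 0.1 or 1 also called 0 genes. The differences below are therefore given as values with their errors and are not calls.

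Mean levels ran from 0.0598 to 107 FPKM, the scale used here because only values per length compare genes. Timp3, an inhibitor that stays bound to the matrix, had the highest mean of the 9 libraries, with 127, 94.5 and 117 in T.chuii, 112, 89.1 and 72.6 in DES, and 134, 115 and 100.2 in CON. Timp2, which inhibits MMPs and also takes part in activating proMMP2, came next at 75.8 FPKM, and the ranges of the 2 inhibitors over libraries overlapped. Mmp3 (stromelysin-1), which cuts many matrix proteins and activates other proMMPs, averaged 70.1 FPKM. Its range of 34.2 to 112 FPKM overlapped that of both inhibitors. Mmp2 (gelatinase A) at 22.7 and Mmp14 (MT1-MMP, the membrane-bound activator of proMMP2) at 16.2 FPKM followed, with ranges that overlapped each other. Adamts1, a versican-cleaving protease, stood at 7.35, Adamtsl5 at 5.91 and Timp1, an inducible secreted inhibitor, at 4.69 FPKM. Mmp23 was at 3.54, Adamtsl4, whose human counterpart is mutated in ectopia lentis, at 3.07, Adamts5 (aggrecanase-2) at 2.29, and Adamts10 at 2.01 FPKM.

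Only 20 of the 41 members exceeded a mean of 1 FPKM and 5 exceeded 10. Mmp9 (gelatinase B), the MMP usually measured in tears in dry eye, averaged 0.903 FPKM. The lowest member, Adamts8, averaged 0.0598 FPKM and rested on 6 to 25 reads per library, and Adamts7 on 7 to 27. Reads of overlapping genes are a limit to these levels, since the strand setting of the counting was not given in the sources used here and 9 members overlap another protein-coding gene. Timp1 (chromosome X, 20870166 to 20874737), Timp3 (chromosome 10, 86300412 to 86349505) and Timp4 (chromosome 6, 115244444 to 115252205; mm10) overlap the synapsin genes Syn1, Syn3 and Syn2. The other 6 are Timp2, Mmp19, Mmp23, Mmp24, Mmp28 and Adamts4, and how reads were divided at all 9 loci is uncertain.

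**Figure D1:**
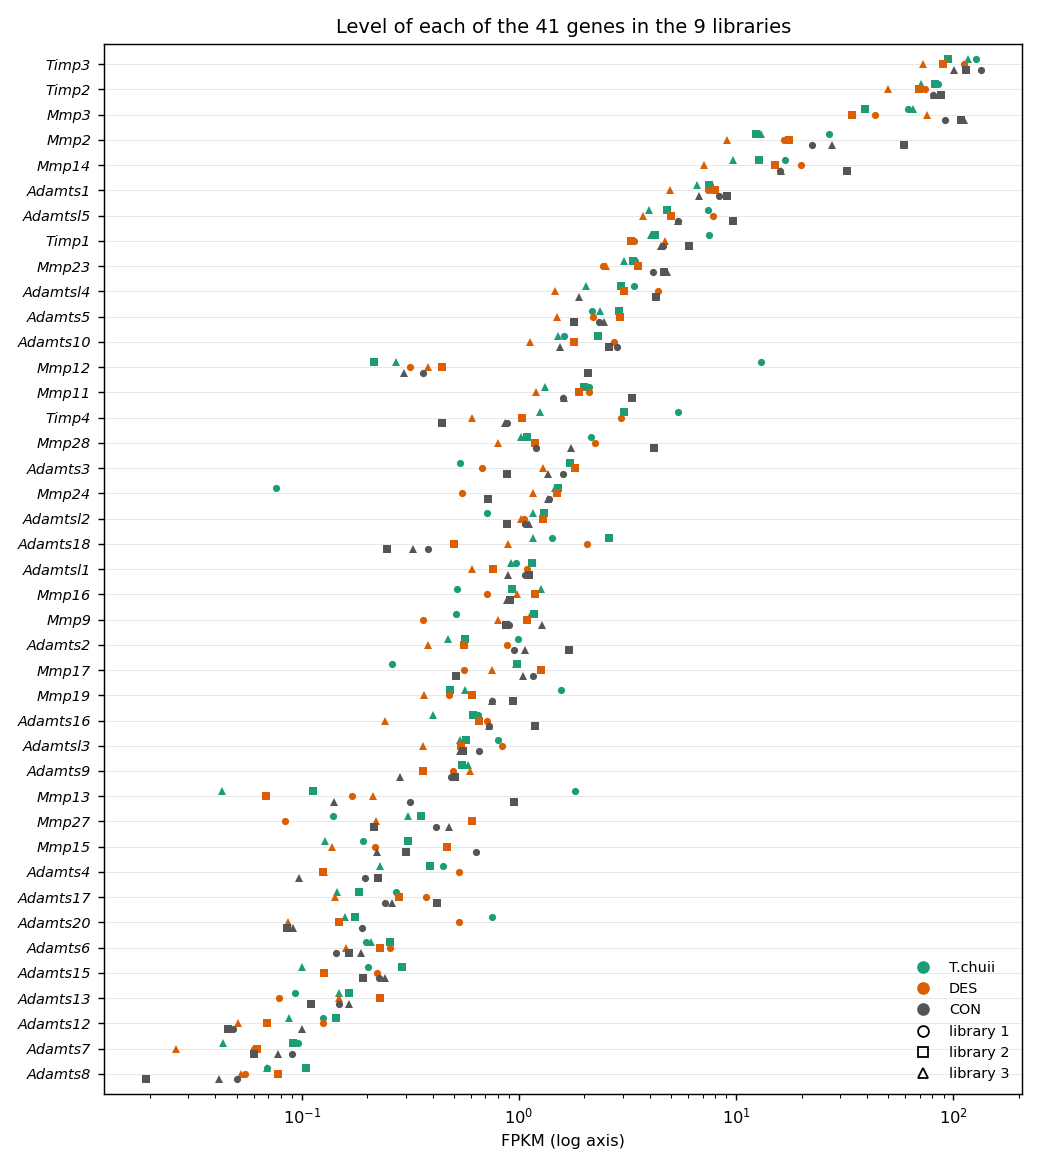
FPKM (log axis) of the 41 genes, ordered by their mean, with 1 point per library: colour gives the group and shape the library number. Timp3, Timp2 and Mmp3 stand at 34.17 FPKM or above in each library, while Mmp12, Mmp13, Mmp24 and Adamts18 spread widely.

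Within families, few genes held most of the transcript. Mmp3, Mmp2 and Mmp14 together made up 80.4% to 91.4% of the summed FPKM of the 15 MMP genes, and Timp3 with Timp2 made up 94.3% to 97.5% of that of the 4 TIMP genes. The summed FPKM of the MMP genes was 131, 76.7 and 99.4 in T.chuii, 90.1, 80.6 and 101 in DES, and 143, 219 and 170 in CON. Each of the 6 libraries from injected mice thus lay below each CON library on this scale. In summed CPM, DES (202.1 to 264.9) stayed below CON (323.6 to 637.3), whereas T.chuii (218.8 to 396.8) overlapped CON through library T.chuii 1. Leaving Mmp3 out, the MMP sum was 69.3, 37.6 and 34.3 FPKM in T.chuii, 46.7, 46.5 and 25.7 in DES, and 51.9, 111 and 58.2 in CON, so that DES and CON did not overlap and T.chuii and CON did. Lens markers also separated CON (at most 286.6 CPM) from both injected groups, although DES 2 (386.5 CPM) lay close to CON. The part of lens tissue in the MMP sums was not tested.

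TIMP transcripts summed to 225, 184 and 194 FPKM in T.chuii, 192, 163 and 128 in DES, and 220, 209 and 187 in CON, with overlap between all groups. The ratio of the TIMP sum to the MMP sum in FPKM was 1.72, 2.4 and 1.95 in T.chuii, 2.13, 2.02 and 1.26 in DES, and 1.54, 0.952 and 1.1 in CON. It averaged 2.02 ± 0.35 in T.chuii, 1.81 ± 0.474 in DES and 1.19 ± 0.304 in CON (SD, n = 3 each). T.chuii lay above CON without overlap in FPKM, while in CPM the ratio overlapped between all groups, at 2.709 to 3.805 in T.chuii, 2.361 to 3.386 in DES and 1.536 to 2.746 in CON. These sums and ratios are descriptions and were not tested.

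**Figure D2:**
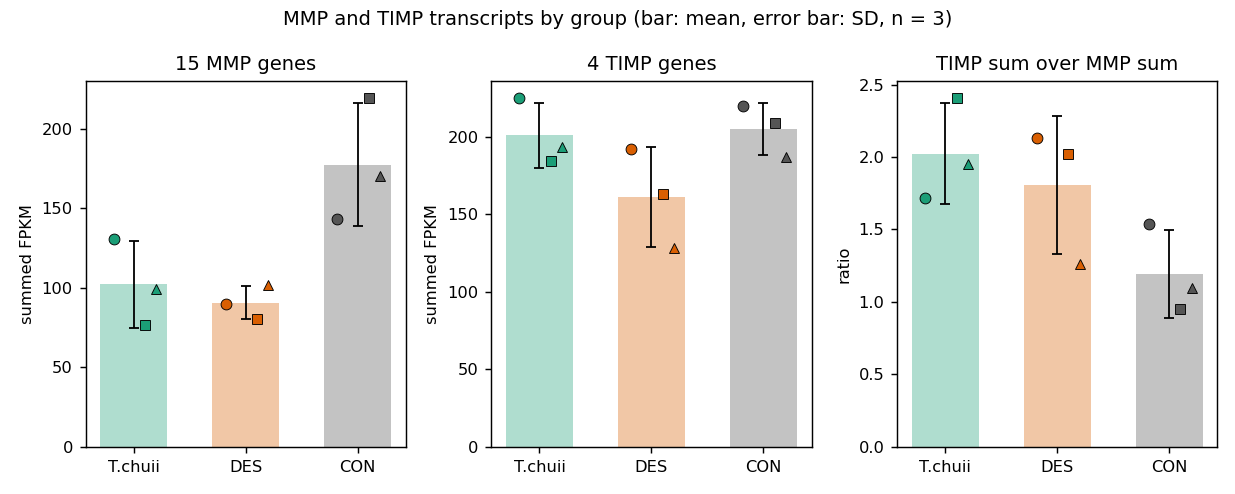
Summed FPKM of the 15 MMP genes (left) and the 4 TIMP genes (middle), and the ratio of TIMP to MMP sums (right), by group; bars are means, error bars SD (n = 3), points libraries. The MMP sum lies between 76.7 and 131 FPKM in T.chuii, between 80.6 and 101 in DES and between 143 and 219 in CON.

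Mmp3, Mmp12 and Mmp13 carry the AP-1 motif TGANTCA in the 250 bases before their start, a site that AP-1 (Fos and Jun dimers) binds in stromelysin and collagenase promoters. They are printed because Mmp3 is the most abundant MMP and because Mmp12 and Mmp13 varied most between libraries. Mmp13 (chromosome 9, 7272514 to 7283333), Mmp12 (7344397 to 7360461) and Mmp3 (7445822 to 7455975) lie in the MMP cluster, as does Mmp27 (7571396 to 7581885). The 100 bases up to each start are given 5′ to 3′ on the + strand from RefSeq (GRCm38.p6), with the motif in capitals, at chr9:7445722-7445821 for Mmp3, chr9:7272414-7272513 for Mmp13 and chr9:7347274-7347373 for 1 of the starts of Mmp12.
Mmp3: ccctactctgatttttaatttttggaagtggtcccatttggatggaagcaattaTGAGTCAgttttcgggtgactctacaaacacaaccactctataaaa
Mmp13: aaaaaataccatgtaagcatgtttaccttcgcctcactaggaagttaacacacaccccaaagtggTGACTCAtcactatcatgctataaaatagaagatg
Mmp12: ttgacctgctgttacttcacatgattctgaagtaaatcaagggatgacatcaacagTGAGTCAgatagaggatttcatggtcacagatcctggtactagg
The motif begins 46, 35 and 44 bases before the start in Mmp3, Mmp13 and Mmp12. TGANTCA reads the same on both strands, so a single search covers them. It was found in 3 of the 29 promoter windows of members (10.3%; 27 members had an entry), and in 6.75% of all 32851 promoter windows of that length. A match in these letters is a description and does not show that the site is bound.

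Setting DES against CON asks what accompanied the scopolamine regimen. Among the 41 members, 29 had lower and 12 higher fitted means in DES, with a median log2 change of -0.21, against a median of -0.02 and 52.4% lower over all genes tested. Of the 29 lower means 14 were MMPs, 8 ADAMTS proteases, 4 ADAMTS-like genes and 3 TIMPs. All 9 secreted MMPs and 5 of 6 membrane-bound MMPs were lower in DES (median over the 15 MMPs -0.58), and 10 to 15 of the 15 were lower whichever library was left out. Marker lists had lower means in DES as well: 12 of 14 for corneal epithelium (median -0.36; summed CPM 23730 to 55630 in DES, 29950 to 88910 in CON), 12 of 14 for keratocytes, sclera and stromal fibroblasts (-0.48) and 10 of 10 for macrophages and microglia (-0.31; 108.3 to 142.9 in DES, 126.5 to 207.8 in CON). Other marker lists had higher means in DES, with 10 of 10 for lens (median 7.27) and 12 of 12 for skeletal muscle (0.99). So did 9 of 10 vascular endothelium markers (0.29) and 10 of 12 rod markers (0.13). The part of these tissues in the MMP difference was not tested. Of the TIMPs 3 of 4 and of the ADAMTS-like genes 4 of 5 had lower means, while the ADAMTS proteases were split, 9 higher and 8 lower (8 and 9 on FPKM). At an unadjusted p under 0.05, 3 members were lower, where 0.507% of all genes were, and 1 was higher, where 0.597% were. On CPM, 2 members had groups without overlap and lower values in DES (1.65% of all genes) and 3 had such groups with higher values (2.0% of all genes).

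Mmp3 had 87.2, 56.7 and 161.7 CPM in the DES libraries, against 158.1, 220.9 and 197.3 in CON. DES 3 lay within the CON range and the other 2 DES libraries below it; on FPKM all 3 DES libraries lay below CON. The log2 change was -1.02 ± 0.36 (standard error; unadjusted p = 0.0178, adjusted p = 1 by limma-voom). Leaving out single libraries gave -1.45 (without DES 3) to -0.65 (without DES 2).

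Mmp2 had 57.2, 49.6 and 33.1 CPM in DES and 65.6, 207.9 and 82.8 in CON. Its groups did not overlap, and CON 2, the corneal-rich CON library, was the highest of all 9. The log2 change was -1.19 ± 0.46 (unadjusted p = 0.027, adjusted p = 1 by limma-voom), and it was -0.69 without CON 2. Its membrane-bound activator Mmp14 had 83.9, 53 and 32.1 CPM in DES, against 58.4, 139.5 and 59.6 in CON. These groups overlapped, and the log2 change was -0.58 ± 0.43.

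Mmp19, a secreted MMP that cuts basement membrane components, was the other member without overlap among those lower in DES, at 1.83, 1.92 and 1.49 CPM, against 2.49, 3.63 and 2.5 in CON (log2 change -0.7 ± 0.46, unadjusted p = 0.163). Mmp9 had 1.28, 3.67 and 3.45 CPM in DES and 3.16, 3.15 and 3.96 in CON (-0.43 ± 0.43). DES 1 was low and the other 2 DES libraries lay within the CON range. Mmp23, a type II membrane protein, had 4.49, 5.78 and 4.75 CPM in DES against 5.55, 9.35 and 7.52 in CON (-0.56 ± 0.28, unadjusted p = 0.0711).

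Adamts2, the procollagen I N-proteinase, had 7.16, 3.72 and 3.29 CPM in DES, against 6.64, 14 and 7.58 in CON (log2 change -1.01 ± 0.43, unadjusted p = 0.0415, adjusted p = 1 by limma-voom). DES 1, the corneal-rich DES library, overlapped CON, and the change was -0.67 without CON 2. Col1a1, a gene of its substrate, had 36.2, 26 and 22.4 CPM in DES and 83.6, 118.9 and 49.7 in CON (-1.51 ± 0.46). The fibroblast and keratocyte marker list of 14 genes, which contains Col1a1 and Col1a2, had 12 lower means in DES (summed CPM 4732 to 8684 in DES, 8280 to 9369 in CON), and its part was not tested. Adamts16 was at 4.09, 3.08 and 1.49 CPM in DES and 3.58, 6.78 and 3.59 in CON (-0.72 ± 0.43).

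Of the members with higher means in DES, Adamts18 had the smallest p. It encodes a protease whose human counterpart is mutated in a syndrome with microcornea, and it lies at chromosome 8, 113697123 to 113849343. It had 13.9, 3.03 and 6.85 CPM in DES against 2.3, 1.88 and 2.1 in CON, without overlap (log2 change 1.64 ± 0.58, unadjusted p = 0.0167, adjusted p = 1 by limma-voom). The order of the DES libraries in Adamts18 was that of their lens marker sums, with 43990, 386.5 and 39340 CPM for libraries 1, 2 and 3, and CON held at most 286.6. The part of lens tissue in the Adamts18 difference was not tested.

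Adamts8, an aggrecan-cleaving protease, was at 0.281, 0.337 and 0.304 CPM in DES and 0.237, 0.103 and 0.201 in CON, without overlap, but these are few reads. Adamtsl2, whose human counterpart is mutated in geleophysic dysplasia, was at 4.25, 4.33 and 4.47 CPM in DES and 3.75, 3.67 and 3.96 in CON (log2 change 0.2 ± 0.27), and its groups overlapped on FPKM. Timp4 and the small-count members Adamts6 and Adamts12 had higher means with overlap, at 0.9 ± 0.72, 0.39 ± 0.31 and 0.39 ± 0.47.

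Comparing T.chuii with DES asks what accompanied the alga in scopolamine-injected mice; it shares the DES libraries with the comparison above. In T.chuii 34 of 41 members had higher means, with a median log2 change of 0.19, against -0.03 and 45.1% higher over all genes tested. At an unadjusted p under 0.05, no member was higher (0.747% of all genes) and none lower (0.348%), and on CPM no member had groups without overlap, higher (2.3%) or lower (2.49%). All 4 TIMPs had higher means in T.chuii, as they did under each setting and with any single library left out (median 0.4). Marker lists also had higher means in T.chuii: 11 of 11 for retinal pigment epithelium (median 0.6; summed CPM 3474 to 5018 in T.chuii, 1464 to 5086 in DES), 7 of 7 for myelin (1.66; 397.7 to 1535 in T.chuii, 206.6 to 431.1 in DES), 12 of 12 for skeletal muscle (1.41) and 9 of 10 for macrophages and microglia (0.37). Lens markers (10 of 10, median 1.53) and adipocyte markers (3 of 3, 4.05) had higher means as well. In contrast, 13 of 14 corneal epithelium markers (-0.48) and 11 of 12 rod markers (-0.275) had lower means in T.chuii. The part of these tissues in the differences of the members was not tested. All 9 secreted MMPs and all 7 proteoglycan-cleaving ADAMTS proteases were higher too, but without library T.chuii 1 only 4 of the 9 secreted MMPs were. All members together had 25 to 34 higher means when single libraries were left out, with 25 reached without DES 3.

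Timp3 had 690.4, 488.6 and 541.3 CPM in T.chuii, against 584.9, 384.2 and 402.8 in DES (log2 change 0.34 ± 0.25, unadjusted p = 0.204). Timp2 had 358.2, 329.7 and 254.3 CPM in T.chuii and 298.4, 231.7 and 215.4 in DES (0.34 ± 0.23, limma-voom unadjusted p = 0.163, adjusted p = 1). For both inhibitors the groups overlapped. Timp1 had 7.78, 4.15 and 3.56 CPM in T.chuii and 3.35, 2.7 and 4.97 in DES (0.46 ± 0.38), with DES 3 inside the T.chuii range.

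Timp4, an inhibitor with a narrower tissue range that is known for its level in the heart, had 18.4, 9.88 and 3.65 CPM in T.chuii and 9.75, 2.81 and 2.13 in DES (log2 change 1.12 ± 0.65, unadjusted p = 0.116). In both groups library 1 was highest and library 3 lowest. The 12 skeletal muscle markers summed to 16310, 7399 and 3308 CPM in T.chuii and to 8050, 2224 and 1439 in DES, the same order as Timp4 within each group. Smooth muscle and pericyte markers had that order too, at 945.1, 660.6 and 366.7 CPM in T.chuii and 841.2, 458 and 319.5 in DES. The 3 adipocyte markers with rows summed to 1559, 327.2 and 84.4 in T.chuii against 38.5, 11.7 and 43.5 in DES. The part of these tissues in the Timp4 difference was not tested, and without T.chuii 1 the change was 0.6. Syn2, the gene Timp4 overlaps, had 6.13, 16.4 and 17.9 CPM in T.chuii and 7.86, 14 and 14.1 in DES. Within each group Syn2 was lowest in library 1, where Timp4 was highest. The part of Syn2 reads in the Timp4 counts was not tested.

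For the abundant MMPs the differences between the injected groups were smaller than their standard errors. Mmp3 had 129.2, 77.7 and 115.7 CPM in T.chuii and 87.2, 56.7 and 161.7 in DES (log2 change 0.17 ± 0.36), and the 95% interval ran from -0.62 to 0.96. Mmp2 had 95.9, 41.7 and 39.6 CPM in T.chuii against 57.2, 49.6 and 33.1 in DES (0.25 ± 0.46), and Mmp14 had 74.1, 53.7 and 36.4 in T.chuii against 83.9, 53 and 32.1 in DES (limma-voom unadjusted p = 0.996, adjusted p = 1). Mmp19 was at 6.22, 1.79 and 1.91 CPM in T.chuii and at 1.83, 1.92 and 1.49 in DES (0.65 ± 0.47), with T.chuii 1 above the DES range and the other T.chuii libraries within it.

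Adamts18 had 10.9, 18.6 and 7.36 CPM in T.chuii and 13.9, 3.03 and 6.85 in DES, with overlap (log2 change 0.8 ± 0.51, unadjusted p = 0.142, adjusted p = 1 by limma-voom), and without DES 2 the change was 0.21. Lower means in T.chuii were found for 7 members, of which 5 are given here. Mmp24 (MT5-MMP), a membrane-bound MMP of nervous tissue, had a log2 change of -0.72 ± 0.87, Adamts17, whose human counterpart is mutated in a Weill-Marchesani-like syndrome, one of -0.34 ± 0.47, and the membrane-bound Mmp15 (MT2-MMP) one of -0.31 ± 0.53. The GPI-anchored Mmp17 (MT4-MMP) was at -0.22 ± 0.47 and Adamtsl2 at -0.12 ± 0.27. Each of these 5 differences was smaller than its standard error, and all but Adamts17 changed sign when a single library was left out.

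**Figure D3:**
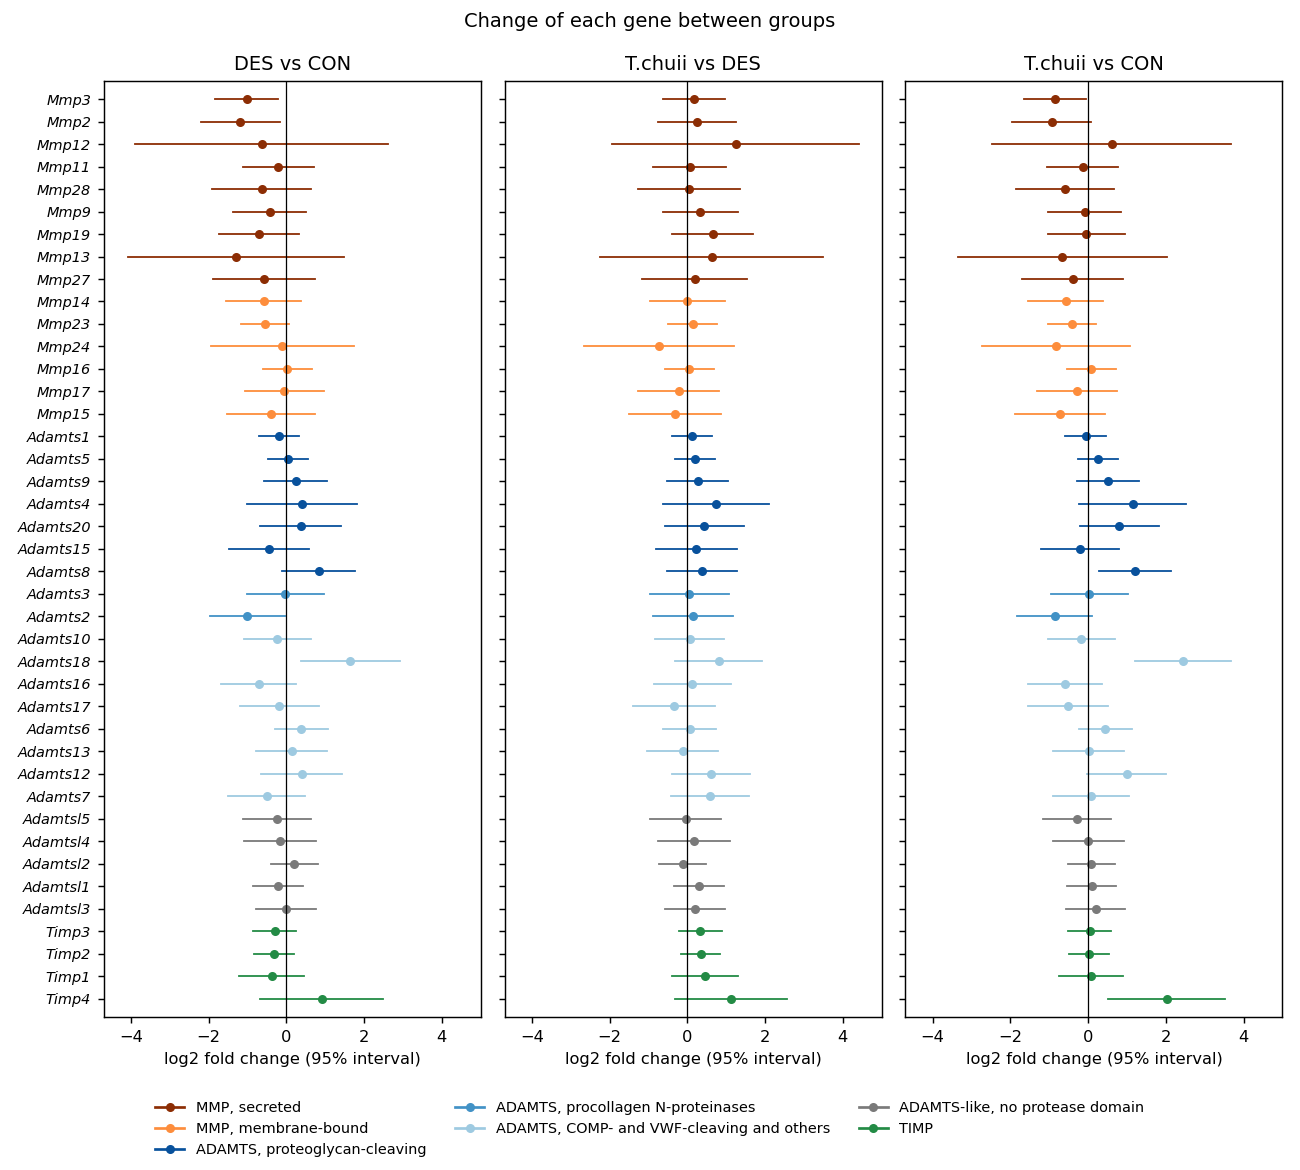
Fitted log2 fold change of each gene with its 95% interval in DES vs CON (left), T.chuii vs DES (middle) and T.chuii vs CON (right), coloured by class. Positive values are higher in the group named before vs; the MMP points of the left panel lie below 0 except Mmp16, and those of all 4 TIMPs in the middle panel lie above 0.

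T.chuii vs CON shares its libraries with the other comparisons. In it, 21 members had higher and 20 lower means (median log2 change 0.01, against -0.04 and 55.4% lower over all genes tested). On log2 FPKM with a pseudocount of 0.1, 13 were higher and 28 lower. Of the 15 MMPs 13 had lower means in T.chuii (median -0.43; 14 on that FPKM scale, 9 without CON 2), and 11 of 17 ADAMTS proteases had higher ones (8 on FPKM). All 4 TIMPs had higher means on counts and 2 of 4 on FPKM, with Timp3 at 0.04 ± 0.25 and Timp2 at 0.02 ± 0.23. At an unadjusted p under 0.05, 3 members were higher, where 3.15% of all genes were, and 1 was lower, where 1.13% were. Groups did not overlap for 5 members with higher CPM in T.chuii (5.45% of all genes) and 1 with lower CPM (2.97% of all genes).

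That member was Mmp3, at 129.2, 77.7 and 115.7 CPM in T.chuii and 158.1, 220.9 and 197.3 in CON. All 3 T.chuii libraries lay below all 3 CON libraries (log2 change -0.85 ± 0.37, unadjusted p = 0.0407, adjusted p = 0.986 by limma-voom). Mmp2 had 95.9, 41.7 and 39.6 CPM in T.chuii against 65.6, 207.9 and 82.8 in CON, and T.chuii 1 overlapped CON, with a change of -0.44 without CON 2 (-0.94 ± 0.46 with all libraries, limma-voom unadjusted p = 0.0675, adjusted p = 0.986). Adamts2 was at 8.39, 4.39 and 3.39 CPM in T.chuii and 6.64, 14 and 7.58 in CON (-0.86 ± 0.43, limma-voom unadjusted p = 0.0721, adjusted p = 0.986), and its change was -0.53 without CON 2.

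The 5 members with higher CPM and no overlap were Adamts18, Timp4, Adamts8, Adamts6 and Adamts9. Adamts18 was at 10.9, 18.6 and 7.36 CPM in T.chuii against 2.3, 1.88 and 2.1 in CON (log2 change 2.44 ± 0.55, unadjusted p = 0.00118, adjusted p = 0.986 by limma-voom). The lens marker sums of the T.chuii libraries were in the same order, 28560, 60230 and 11780 CPM. Timp4 was at 18.4, 9.88 and 3.65 CPM in T.chuii and 2.49, 1.5 and 2.5 in CON (2.02 ± 0.68, limma-voom unadjusted p = 0.0132, adjusted p = 0.986), with skeletal muscle markers at 824.5 to 2280 CPM in CON. Their part was not tested. Adamts8 was at 0.373, 0.546 and 0.322 CPM in T.chuii and 0.237, 0.103 and 0.201 in CON (1.21 ± 0.42, limma-voom unadjusted p = 0.0159, adjusted p = 0.986). Adamts9, a versican-cleaving protease, was at 5.33, 5.35 and 5.11 CPM in T.chuii against 4.13, 5.1 and 2.45 in CON, so that T.chuii 3 and CON 2 were almost equal. Adamts6 was at 1.86, 2.25 and 1.66 CPM in T.chuii and 1.14, 1.55 and 1.53 in CON (0.44 ± 0.31).

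Mmp12, Mmp13 and Mmp24 had the largest ratios of highest to lowest library among the 41 members. Mmp12, macrophage metalloelastase, had 54.4, 0.873 and 0.983 CPM in T.chuii, 1.28, 1.5 and 1.66 in DES, and 1.26, 8.52 and 1.07 in CON, a ratio of 62.4 between highest and lowest. T.chuii 1 was high, CON 2 was the next and the other 7 libraries stayed at or below 1.66. Mmp13 (collagenase-3) had 5.66, 0.349 and 0.114 CPM in T.chuii, 0.522, 0.169 and 0.69 in DES, and 0.807, 2.89 and 0.369 in CON, with the same 2 libraries on top.

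T.chuii 1 and CON 2 were the 2 libraries with the highest corneal-to-rod ratios, while DES 1, the next in that ratio, lay within the range of the other 6 libraries in both genes. The 10 macrophage and microglia markers summed to 223.9, 140.8 and 131.1 CPM in T.chuii, 142.9, 108.3 and 137.2 in DES, and 126.5, 207.8 and 161.6 in CON, again highest in T.chuii 1 and CON 2. Markers of keratocytes, sclera and stromal fibroblasts (11710 CPM in T.chuii 1 and 9369 in CON 2) were highest in these libraries as well. So were myelin markers (1535 and 1058). The part of these cell types in the Mmp12 and Mmp13 values was not tested. The tear-related Mmp9 was at 2.19, 4.15 and 3.57 CPM in T.chuii, 1.28, 3.67 and 3.45 in DES and 3.16, 3.15 and 3.96 in CON, and was lowest in DES 1 and T.chuii 1.

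Mmp24 had 0.419, 7.22 and 6.24 CPM in T.chuii, 2.63, 5.95 and 5.94 in DES, and 5.72, 3.55 and 5.75 in CON. In each group the corneal-rich library was the lowest.

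Over all members, 14 of 41 (34.1%) were highest in the corneal-rich library of their group in all 3 groups, where 20.0% of all genes were. These were Mmp2, Mmp11, Mmp14, Mmp28, Adamts1, Adamts2, Adamts4, Adamts16, Adamts17, Adamtsl3, Adamtsl4, Adamtsl5, Timp2 and Timp3. Another 7 members (17.1%) were lowest in that library in all 3 groups, where 17.7% of all genes were: Mmp9, Mmp17, Mmp24, Mmp27, Adamts3, Adamts13 and Adamtsl2. The corneal-rich libraries also had the lowest rod marker sums of their groups (9837 CPM in T.chuii 1, 16330 in DES 1, 17100 in CON 2). They were highest of their groups in smooth muscle and pericyte, macrophage and microglia, and myelin markers as well. The part of each tissue in these orders was not tested. Mmp28 (epilysin), a secreted MMP of epithelia, was among the 14, at 8.78, 4.26 and 3.54 CPM in T.chuii, 8.77, 3.83 and 3.37 in DES and 4.08, 16.8 and 5.99 in CON.

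**Figure D4:**
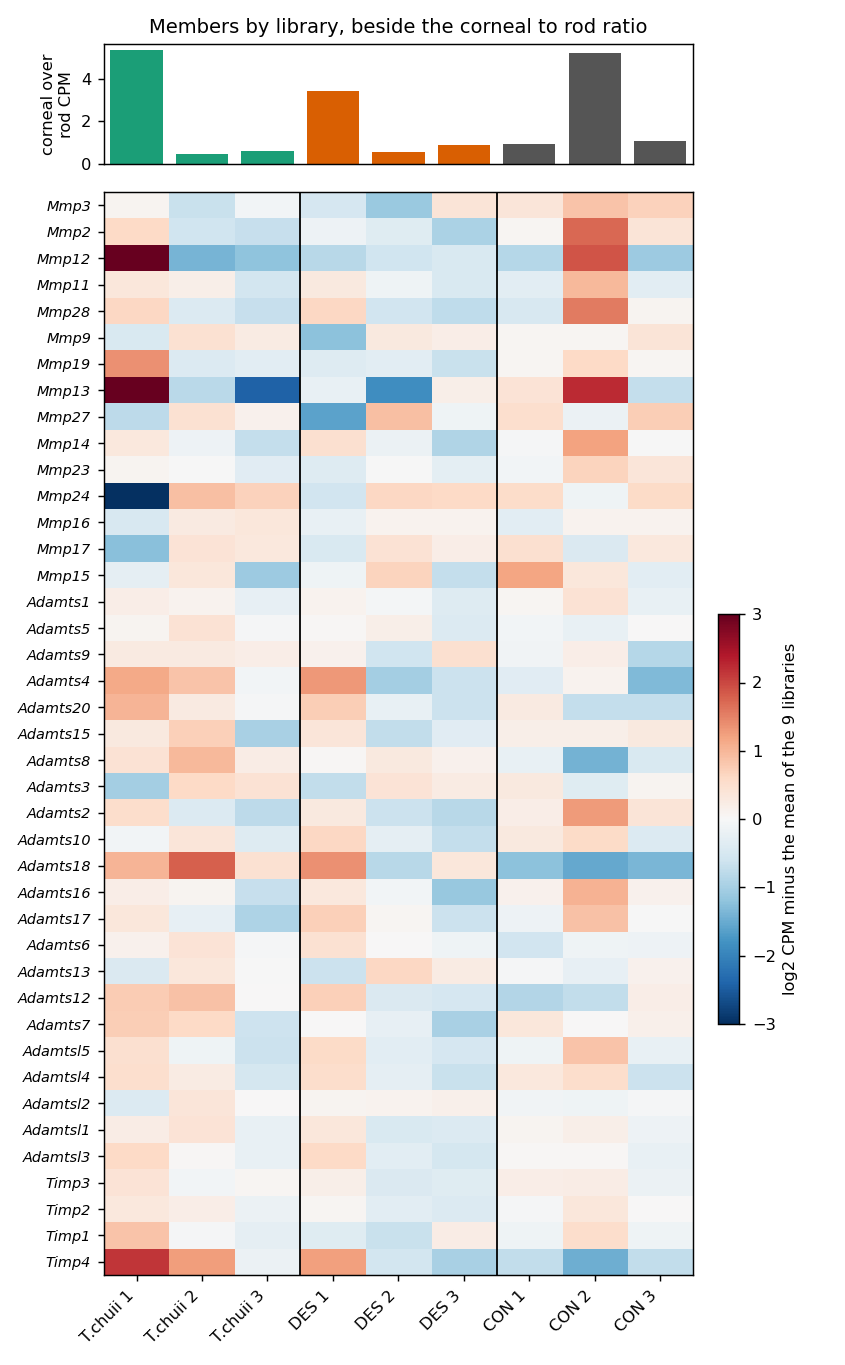
Log2 CPM of each gene minus its mean over the 9 libraries (colour, cut at 3 in both directions), with the ratio of corneal to rod marker CPM above. Mmp12 and Mmp13 are highest in T.chuii 1 and CON 2, and Mmp24 is lowest in T.chuii 1, the library with the highest ratio (5.35).

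**Figure D5:**
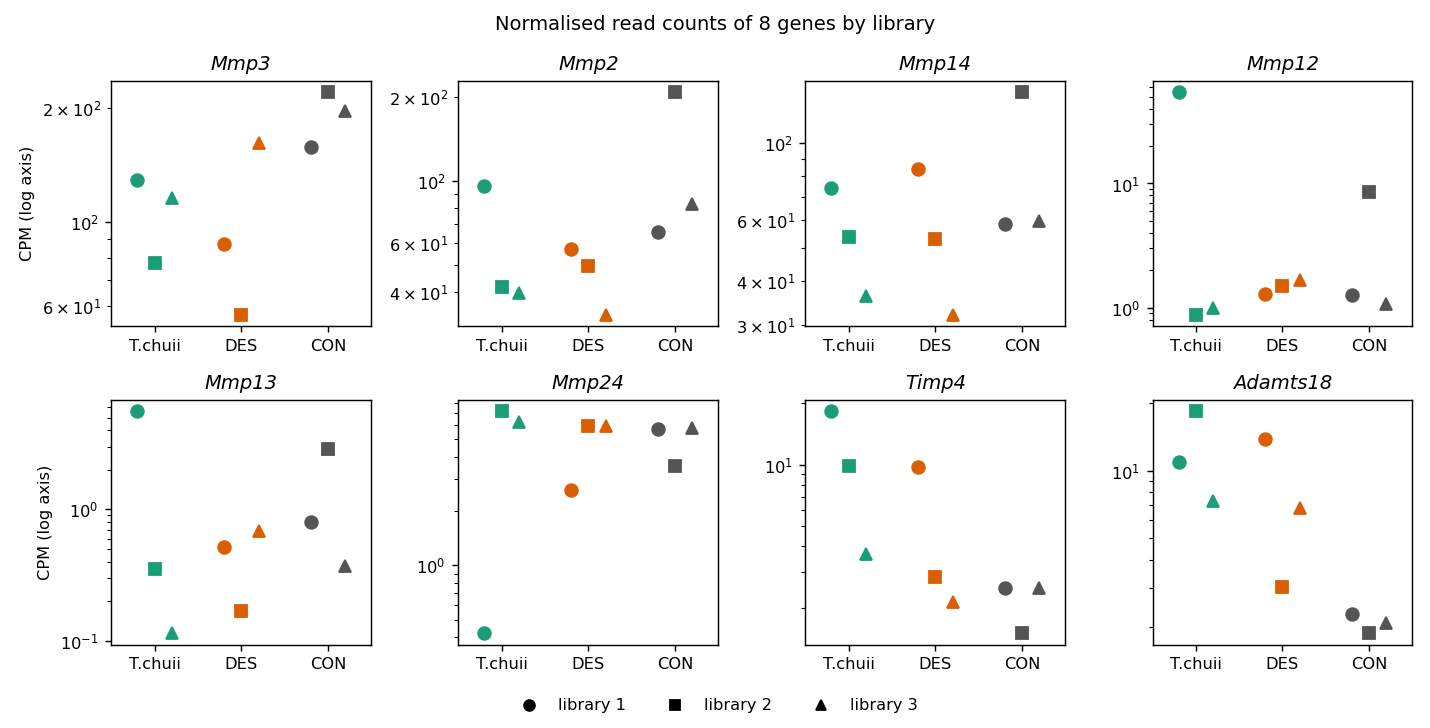
CPM (log axis) of 8 genes in each library; colour gives the group and shape the library number. All T.chuii values of Mmp3 lie below CON, Adamts18 is higher in each T.chuii and DES library than in CON, and Mmp12 reaches 54.4 CPM in T.chuii 1.

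Genes around the metalloproteinases were read from 4 lists, and none of their genes passed the test. Of 17 tested genes for activation and control of metalloproteinases, 15 were below CON in DES by their means (median log2 change -0.23). The protease trap A2m had 104.4, 137.9 and 133.5 CPM in DES and 259.3, 1092 and 202.3 in CON (-1.62 ± 0.64, unadjusted p = 0.028), without overlap, and Thbs2, a matricellular protein that clears MMP2, had 25.9, 16.5 and 22.9 in DES and 32, 82.8 and 32.4 in CON (-1.06 ± 0.43). In T.chuii vs DES 11 of the 17 were higher (median 0.04), and in T.chuii vs CON 12 were lower (-0.24).

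Matrix substrates were lower in DES than in CON for 13 of 19 genes (median -0.36), higher in T.chuii than in DES for 11 (0.12), and lower in T.chuii than in CON for 13 (-0.21). Col1a1 had 52, 24 and 13.9 CPM in T.chuii, against 36.2, 26 and 22.4 in DES and 83.6, 118.9 and 49.7 in CON; its T.chuii vs CON change was -1.63 ± 0.46 (unadjusted p = 0.00484). The basement membrane collagen gene Col4a1 had higher values in T.chuii, at 91.6, 86.3 and 43 CPM in T.chuii, 77.1, 12.2 and 37.9 in DES and 23.9, 24.9 and 14.5 in CON. All 3 T.chuii libraries lay above CON (1.78 ± 0.59, limma-voom unadjusted p = 0.012, adjusted p = 0.986), and the low DES library was DES 2, that with the lowest lens marker sum of the injected groups.

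The ADAM and related proteases, which include the sheddases Adam10 and Adam17, had 9 of 14 lower means in DES than in CON (median -0.12), 7 of 14 higher in T.chuii than in DES, and 10 of 14 lower in T.chuii than in CON (-0.18). Of 16 inflammatory inducers and AP-1 genes, 14 means lay below CON in DES (median -0.32) and 15 below CON in T.chuii (-0.47), and 6 were higher in T.chuii than in DES (-0.1). Ptgs2, the inducible cyclooxygenase, had 2.96, 1.72 and 1.17 CPM in T.chuii, 1.75, 1.05 and 1.63 in DES and 8.3, 4.63 and 3.02 in CON, so that both injected groups lay below CON. The AP-1 gene Junb had 154.7, 64.6 and 74.9 CPM in T.chuii, 323.5, 178.4 and 79.5 in DES and 258.6, 354.2 and 178.4 in CON, and Jun had 56.4, 43.3 and 37.6 in T.chuii, 255.5, 142.5 and 35.1 in DES and 96.6, 67.7 and 83.6 in CON. Jun overlapped between T.chuii and DES through DES 3, with a log2 change of -1.25 ± 0.57 (unadjusted p = 0.0513).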

How the data were processed

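Per the labels' protocols, total RNA of whole eyeballs was made into stranded mRNA libraries. The submitters' processing notes name mm10 as the build and, as tools, StringTie 2.1.3b, HISAT2 2.1.0 with Bowtie2 2.3.4.1, Trimmomatic 0.38 and also FastQC 0.11.7. The counting step, its strand setting and the row filter are not given in the sources used here. The lowest count was 1 in each library, so a gene without reads in any single library had no row. Per the file headers, the authors deposited a whole-number read count and an FPKM for every gene in each library. Rows hold unequal numbers of cells, and both values were read from their right end.

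The filter asked for 15 reads in total and, in 3 or more libraries, for a CPM worth 10 reads at the median library size, and it left 21287 of 22587 genes. Counts were normalised to CPM with TMM factors from own code and tested with limma-voom (limma 3.58.1, R 4.3.3), with 9 libraries and 3 group means in 1 fit (6 residual degrees of freedom), two-sided, Benjamini-Hochberg over all genes, threshold 0.05. A quasi-likelihood count test and a second count test had been planned and were not run, because the irregular rows could not be declared as counts by column position; limma-voom was the fallback written down for that case. The code was checked on simulated counts. Python 3.11.15, pandas 2.3.3 and matplotlib 3.10.9 served for tables and figures.

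Groups came from the sample titles. Deviations of same-numbered libraries from their group means correlated across genes at r of 0.558, 0.342 and 0.17 for T.chuii and DES (numbers 1, 2 and 3), so that all 3 passed the limit of 0.1 set for pairing, although number 3 stood below a pair of unequal numbers (0.463). For DES and CON r was -0.297, -0.244 and 0.227, and for T.chuii and CON -0.295, -0.371 and 0.293, so that only number 3 passed. Number 1 was the corneal-rich library in both T.chuii and DES, so its r cannot tell pairing from shared tissue content. The numbers in the file headers differ from those in the titles. Coordinates and promoters are from RefSeq (GRCm38.p6, the assembly of mm10). The members and lists were chosen with earlier results of these data known. Members were named if among the 12 highest in FPKM, the 5 with the smallest p in each direction, those without overlap, the 6 with the largest ratio of highest to lowest library, or usually measured in dry eye; of each list, up to 3 genes were named, and Col4a1 and Jun are among these. Beyond these rules, members were named for overlapping genes, place in the MMP cluster, few reads or their order in the corneal-rich libraries. Mmp28 was given with its values outside these rules. Alternatives were other size factors, filters and pseudocounts, limma-trend on FPKM, a replicate block, fits of 2 groups alone and leaving out libraries.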

Additional observations from a re-analysis of the deposited data

How the results depend on the processing

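No member passed the threshold under any setting, and the smallest adjusted p of a member was 0.174 (without DES 2), against 0.986 as reported. Over all genes the count of calls, 0 as reported in each comparison, moved in a few settings. Leaving out 1 library gave 0 to 15 calls in DES vs CON, 0 in T.chuii vs DES and 0 to 17 in T.chuii vs CON, with 15 and 17 reached without DES 2. A fit of the 2 groups alone called 12 genes in T.chuii vs CON, and leaving out CON 2, DES 1 and T.chuii 1 together called 1 in T.chuii vs DES and 1 in T.chuii vs CON. With a replicate block over all 9 libraries, 0 genes were called in each comparison; with the replicate block in the 2 groups alone, chosen after seeing the data, 2 were called in T.chuii vs DES and 12 in T.chuii vs CON. The paired fits changed no member's call, and the cause of the other shifts was not tested.

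Members by sign were most sensitive in T.chuii vs CON, where 21 were higher on counts and 13 on log2 FPKM with a pseudocount of 0.1. Of 610 alternative values of named members, 11 reversed. In T.chuii vs DES these were Mmp24 (0.58 without T.chuii 1, 0.17 without the 3 corneal-rich libraries), Mmp17 (0.01 without DES 2, 0.31 and 0.02), Adamtsl2 (0.09 and 0.06) and Mmp15 (0.09 without DES 2, 0.08 without T.chuii 3). The range over single libraries left out was -1.37 to 0.58 for Mmp24, -0.49 to 0.31 for Mmp17, -0.27 to 0.09 for Adamtsl2 and -0.62 to 0.09 for Mmp15. In DES vs CON, without the 3 corneal-rich libraries, Timp4 was at -0.02 and Adamts12 at -0.17. The means of the least abundant members rest on few reads.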
